A study of Mus musculus with 12 samples.

Results

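Transcripts of the cytosolic ribosomal proteins were examined in the quadriceps of male dystrophic mice at 6 weeks of age. A gene was taken as a member when a transcript cluster, the array's unit of one gene model, was paired by the platform annotation with exactly 1 symbol made of Rpl or Rps and a digit, or with Rplp0, Rplp1, Rplp2 or Rpsa. Symbols of pseudogenes (ending in -ps and a number) and of the Rps6k kinases were left out, and the cluster with the highest mean signal stood for each symbol. This gave 45 genes from 51 clusters, of 30412 clusters with exactly 1 symbol. Of the 45, 33 encode proteins of the mature ribosome (18 of the large subunit and 15 of the small), and 12 are paralogues, retrocopies or genes that match by name. Rps19bp1 is of the last kind: it encodes a protein that binds Rps19 and is not part of the ribosome. The mature ribosome has 77 protein genes on the subunit lists used here, and 44 of them, Rpl3, Rpl5, Rpl13a, Rplp1, Rplp2 and Rps6 among them, had no cluster with exactly 1 symbol and are not analysed here.

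All mice were utrn+/-;mdx on C57BL/10. The mdx allele leaves muscle without full-length dystrophin, the protein that links the actin cytoskeleton to the cell membrane, and these mice also carried only 1 intact copy of the utrophin gene, a relative of dystrophin. The 12 mice formed 4 groups of 3. One group was untreated on normal chow. The second received spironolactone at 100 mg/kg per day with lisinopril at 20 mg/kg per day, and the third received eplerenone at 200 mg/kg per day with the same lisinopril dose, both in medicated pellets. The fourth received prednisolone at 1.5 mg/kg per day in drinking water. Treatment ran from 4 to 6 weeks of age. Spironolactone and eplerenone block the mineralocorticoid receptor, lisinopril blocks angiotensin-converting enzyme, and prednisolone is a glucocorticoid used in Duchenne muscular dystrophy. No healthy mice and no pellets without drug were analysed here, so a drug cannot be told apart from its vehicle.

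The ribosome is built from ribosomal RNA and ribosomal proteins, made in near-equal amounts and joined in the nucleolus into a small subunit that decodes the messenger and a large subunit that forms peptide bonds. The messengers of these proteins begin with a terminal oligopyrimidine (TOP) tract, through which mTORC1 signalling governs their translation, so their amount and their use can differ. In skeletal muscle, ribosome number is a main determinant of the capacity for protein synthesis, and glucocorticoids are known to lower that capacity. The arrays measured messenger amounts, not ribosomes or translation.

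Start regions of 4 members are shown. They are Rpl3l, the muscle paralogue that was higher under prednisolone, and Rps24, Rps7 and Rps28. These small-subunit genes had differences among the lowest under prednisolone but did not pass the test. The region of Rpl12, the only member called lower, is not shown. Each runs from 80 bases before to 20 bases after the annotated start in RefSeq on GRCm38.p6, read 5′ to 3′ along the gene, and capitals mark each match, on either strand, to any of the 5 motifs named below. Rpl3l lies on the plus strand (chr17:24727746-24727845), Rps24 on the plus strand (chr14:24490598-24490697), Rps7 on the minus strand (chr12:28635934-28636033) and Rps28 on the minus strand (chr17:33824543-33824642).
Rpl3l: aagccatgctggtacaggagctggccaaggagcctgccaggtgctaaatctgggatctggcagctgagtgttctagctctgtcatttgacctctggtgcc
Rps24: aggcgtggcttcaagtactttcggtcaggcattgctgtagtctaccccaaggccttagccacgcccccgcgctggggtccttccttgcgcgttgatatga
Rps7: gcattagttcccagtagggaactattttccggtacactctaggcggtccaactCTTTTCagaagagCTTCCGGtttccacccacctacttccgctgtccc
Rps28: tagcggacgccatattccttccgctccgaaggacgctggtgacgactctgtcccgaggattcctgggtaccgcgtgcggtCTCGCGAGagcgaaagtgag

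The motifs were searched on both strands of the RefSeq promoter windows (250 bases before to 50 after the start) of the 37 members found in that table, 28 of them mature ribosome genes. CCGGAAG, the core bound by ETS factors such as Gabpa, was present in 14 of the 28 mature genes (16 of all 37, 43.2%), against 9.14% of all 27025 promoters. The palindrome CTCGCGAG was present in 3 of 28 (10.7%), namely Rpl12, Rps19 and Rps28, against 0.966% of all promoters. The YY1 core AAGATGGC was in 1 of 28 (3.57%, all promoters 2.87%), TATAAA in 4 of 28 (14.3%, all promoters 14.2%) and the pyrimidine stretch CTTTTC in 7 of 28 (25.0%, all promoters 21.8%). No matches overlapped in the printed regions: Rps7 held CTTTTC and, on the other strand, CCGGAAG, and Rps28 held CTCGCGAG. The Rpl3l and Rps24 regions as printed held none of the searched letters. A match describes the letters and is no test of binding.

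The arrays were alike in overall signal: medians of the tested clusters ran from 5.70 to 5.81 (deposited log2 signal), and array pairs correlated at 0.9857 to 0.9961 over the clusters. The median member was brighter than 89.6% of tested clusters. Deposited values reached 19.93, beyond the 16 that a 16-bit scanner can give in log2 units, and 5 members (Rpl4, Rpl12, Rpl41, Rps7, Rps26) lay above 16 on at least 1 array. One array stood apart for these genes. Prednisolone array 3 had 40 of the 45 members above their own mean over the 12 arrays, against 5 and 7 in prednisolone arrays 1 and 2. Results with and without it are given below. Differences are log2 differences ± SE from a limma fit of the 4 groups, with n = 3 arrays per group and p-values adjusted by Benjamini-Hochberg over all 30412 clusters. Signals of different clusters are not compared as levels, since probes differ.

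**Figure D1:**
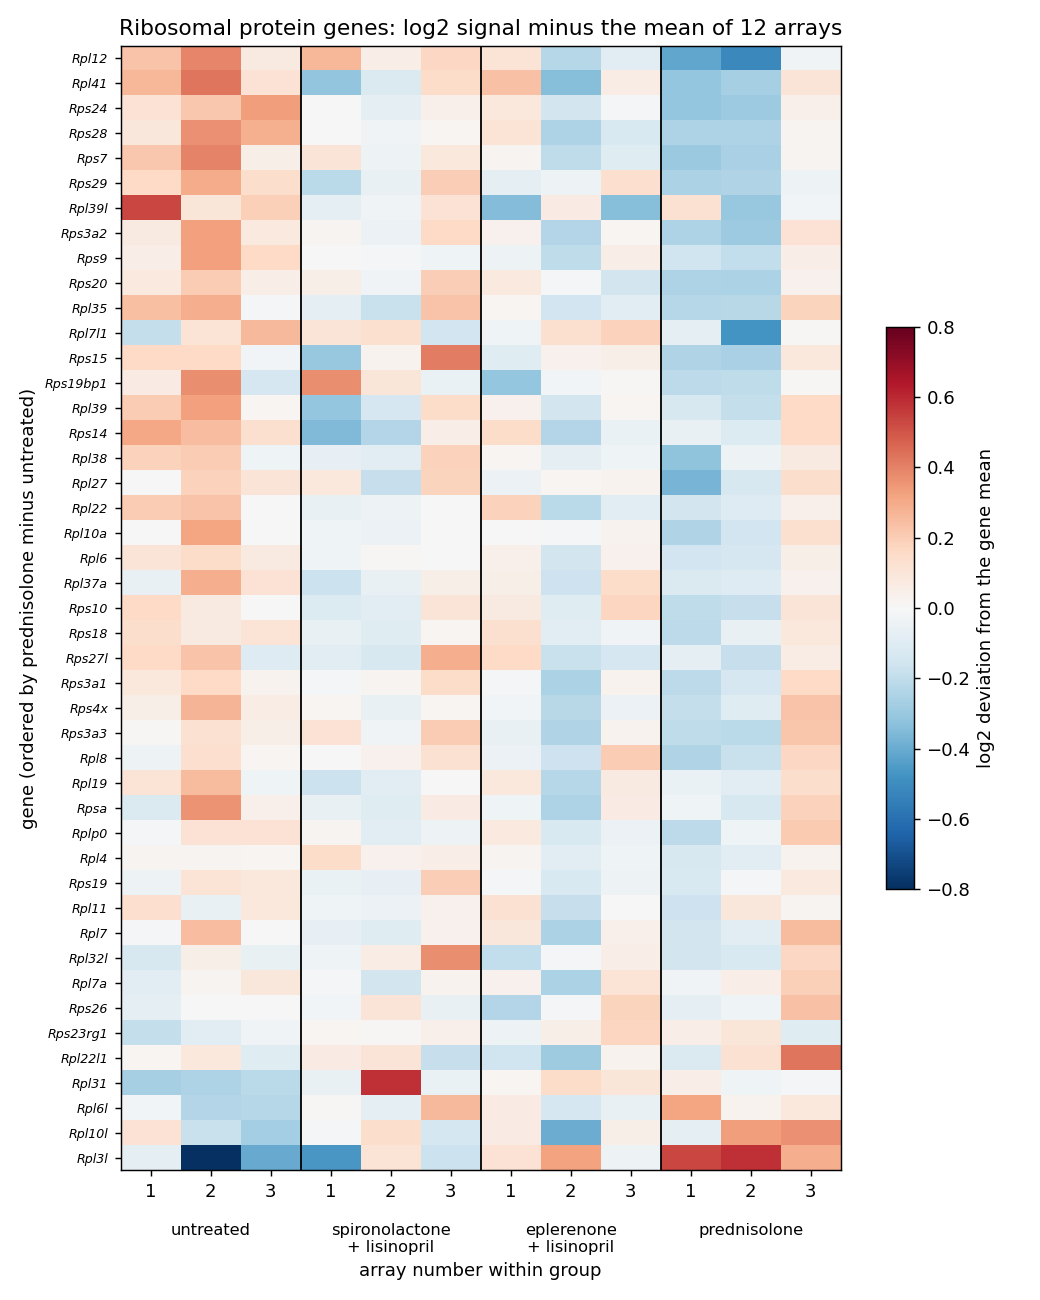
Log2 signal of each of the 45 members (rows, ordered by prednisolone minus untreated) minus its own mean over the 12 arrays (columns, by group). Prednisolone arrays 1 and 2 are mostly blue (5 and 7 members above their mean), and prednisolone array 3 is mostly red (40 members above).

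Under prednisolone most members lay a little below untreated, 1 passed the test in that direction and 1 in the other. The question was how the glucocorticoid changed this gene family in dystrophic muscle. Rpl3l, a paralogue of Rpl3 made mainly in striated muscle, rose, and Rpl12, a protein at the base of the large subunit's stalk, fell. The 2 members called are to be read against 6.39% of all tested clusters (3.22% higher, 3.17% lower). Of the 3159 tested clusters at least as bright as the median member, 309 were called higher and 217 lower. No member reached a fold of 2, the study's own threshold, which 1.69% of clusters did. In bulk muscle, fewer cells of a type and less RNA per cell cannot be told apart.

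Rpl3l read 11.06, 10.32 and 10.72 in the untreated arrays and 11.66, 11.71 and 11.42 under prednisolone. All 3 prednisolone arrays were above all 3 untreated arrays. The difference was 0.89 ± 0.19 (limma adjusted p = 0.022). The call was lost without untreated array 2 (0.71, adjusted p = 0.071), without untreated array 3 (0.91, 0.066), without prednisolone array 1 (0.86, 0.080) and without prednisolone array 2 (0.84, 0.095). It was also lost when the fit held only the 2 groups compared (adjusted p = 0.070). It passed in 15 of the 20 alternatives run. Its sign was positive in all of them, but many left its values in the 2 groups unchanged. The difference then stayed at 0.89, so those alternatives could not test its sign. Rpl3 itself is not analysed here, so the balance of the pair is unknown.

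Rpl12 read 17.38, 17.54 and 17.22 in untreated muscle and 16.73, 16.64 and 17.12 under prednisolone. The groups did not overlap, though prednisolone array 3 came close to the lowest untreated array. The difference was -0.55 ± 0.14 (limma adjusted p = 0.043). The call passed in 7 of the 20 alternatives (adjusted p 0.017 to 0.16) and was lost without any 1 of the 3 untreated arrays (0.069, 0.14 and 0.063), any 1 of the 3 spironolactone arrays (0.057, 0.055 and 0.054), eplerenone array 3 (0.061), or prednisolone array 1 (0.14) or 2 (0.16). Its cluster, named for chromosome 10 while the gene lies on chromosome 2, was above 16 on all 12 arrays. The value is therefore uncertain both as a level and as this gene's.

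Some small-subunit genes came close without passing. Rps24, which takes part in maturation of the small subunit, read 10.12, 10.22 and 10.34 in untreated arrays and 9.70, 9.72 and 10.05 under prednisolone. Its groups did not overlap, and the difference of -0.41 ± 0.11 had a limma adjusted p of 0.0503. Rps28, a small protein near the messenger exit, read 6.68, 6.96 and 6.87 untreated and 6.35, 6.35 and 6.62 under prednisolone. All prednisolone values of Rps28 were below all untreated ones, with a difference of -0.40 ± 0.11 (adjusted p = 0.062). Rps7, needed for processing of the small-subunit RNA, read 16.12, 16.31 and 15.95 untreated against 15.61, 15.65 and 15.93 under prednisolone. That is a difference of -0.40 ± 0.12 (adjusted p = 0.067), with the third prednisolone array just under the lowest untreated array. Rps29, which carries a zinc-binding motif, read 14.03, 14.17 and 14.01 untreated and 13.62, 13.63 and 13.83 under prednisolone. Its groups did not overlap, and the difference was -0.38 ± 0.11 (adjusted p = 0.079).

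**Figure D2:**
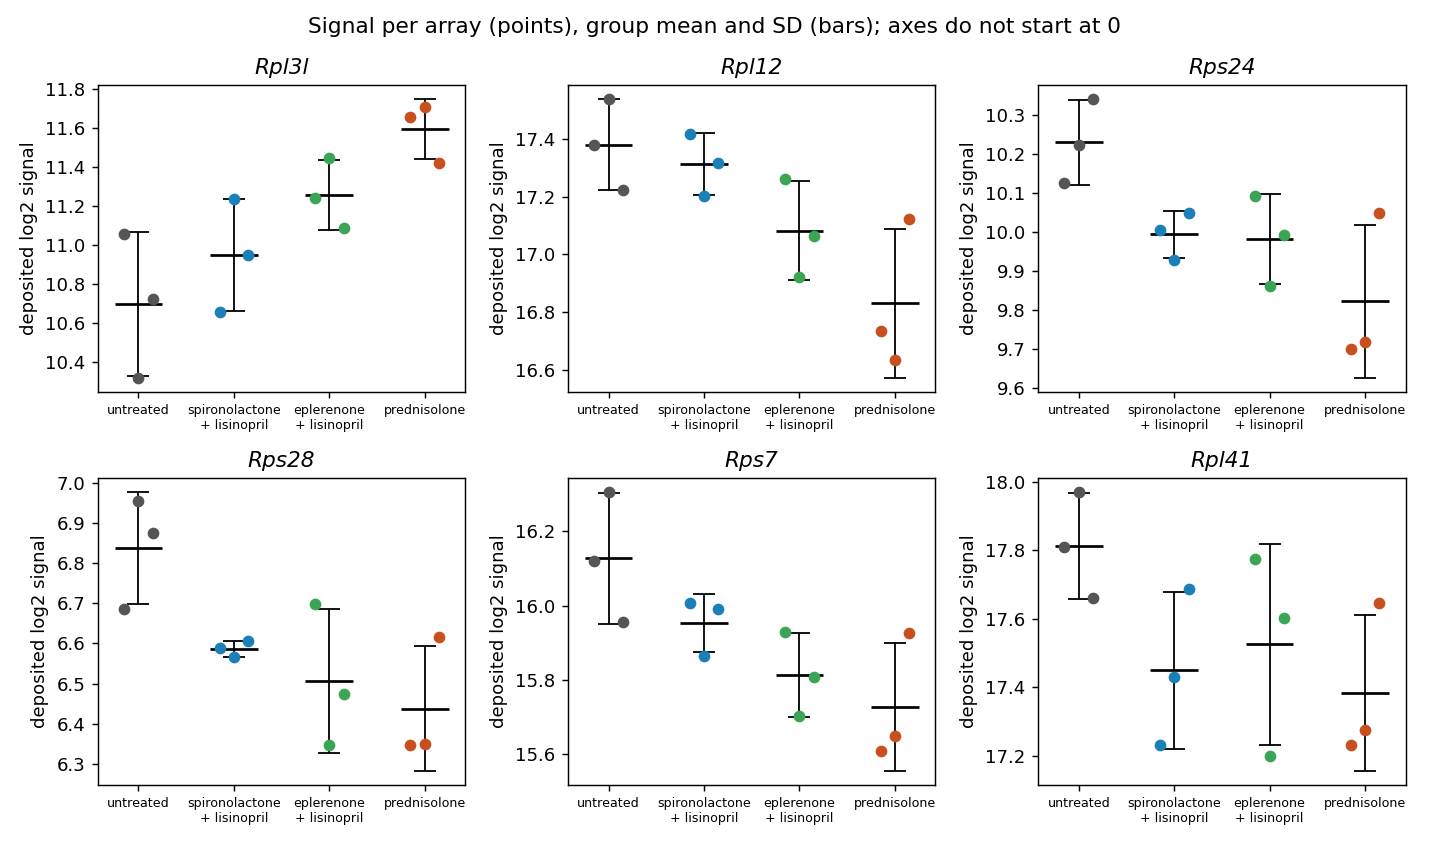
Deposited log2 signal on each array (points) with the group mean and SD (bars, n = 3) for 6 members; the vertical axes do not start at 0. Rpl3l is highest under prednisolone (11.42 to 11.71), and in the other 5 panels prednisolone array 3 is the highest of its group.

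Without prednisolone array 3 the count of members called went from 2 to 5, with Rps24 (-0.52, limma adjusted p = 0.019), Rps7 (-0.50, 0.039) and Rps28 (-0.49, 0.043) passing beside Rpl3l (0.98, 0.033) and Rpl12 (-0.70, 0.017). Without untreated array 1 the members called were Rpl3l (adjusted p = 0.0088), Rps28 (0.038) and Rps24 (0.044). The count was 0 without untreated array 2 or 3 and without prednisolone array 1 or 2, and 1 without spironolactone array 1 or 2 or eplerenone array 3. With dim clusters left out, 6 members passed: the same 5 and Rps29 (adjusted p = 0.045). The share of all clusters called in each of these refits is not given here. A change in the count is therefore not read as a result about the members.

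Among the 18 large-subunit members 16 lay below 0, with a median of -0.18. Rpl41, the shortest ribosomal protein, read 17.81, 17.97 and 17.66 in untreated arrays and 17.23, 17.27 and 17.64 under prednisolone. The third prednisolone array sat just below the lowest untreated array, and the difference of -0.43 ± 0.17 did not pass (adjusted p = 0.18). Rpl6 had non-overlapping groups at -0.19 ± 0.08 (adjusted p = 0.22). Rpl11, which can bind Mdm2 and stabilise p53, was at -0.07 ± 0.10, Rpl22 at -0.21 ± 0.11 and Rplp0, the core of the stalk, at -0.09 ± 0.11. Rpl39, at the tunnel exit, was at -0.24 ± 0.14 and Rpl7 at -0.07 ± 0.13. The 2 large-subunit members above 0 were Rpl31 (0.24 ± 0.15) and Rpl7a (0.06 ± 0.11).

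Rpl31, which sits by the exit of the peptide tunnel, was the mature ribosome gene furthest above 0. It read 8.17, 8.19 and 8.23 untreated and 8.50, 8.41 and 8.42 under prednisolone, so every prednisolone array was above every untreated array. The test did not pass (adjusted p = 0.37), and this cluster lies on chromosome 7 while Rpl31 lies on chromosome 1.

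Of the 15 small-subunit members 14 lay below 0, with a median of -0.23 and a range from -0.41 (Rps24) to 0.07 (Rps26). Rps20 had non-overlapping groups (-0.27 ± 0.10, adjusted p = 0.17), and Rps9 was at -0.28 ± 0.10 (0.13). Rps19, the gene most often mutated in Diamond-Blackfan anaemia, was at -0.07 ± 0.09, Rps4x, the X-linked member, at -0.15 ± 0.11, and Rpsa, also known as a laminin receptor, at -0.09 ± 0.13. None of these differences passed the test.

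The 12 paralogues and like-named members did not share one sign: 6 lay below 0, with a median of -0.06. Rpl10l, expressed mainly in testis, was at 0.32 ± 0.16 (adjusted p = 0.29). Rpl6l, a gene named as Rpl6-like, read 11.83, 11.62 and 11.62 untreated and 12.17, 11.88 and 11.94 under prednisolone, a non-overlapping difference of 0.31 ± 0.11 that did not pass (0.15). Rpl22l1, the paralogue of Rpl22, was at 0.14 ± 0.14, and Rps27l, a p53 target, at -0.16 ± 0.14. Rpl39l, a testis paralogue of Rpl39, was at -0.34 ± 0.15 (adjusted p = 0.23), Rpl7l1 at -0.24 ± 0.15 and Rps19bp1 at -0.24 ± 0.15. Rpl10l and Rpl39l were dim, with mean signals over the 12 arrays of 5.13 and 5.58. Both means lie below the lowest array median of the tested clusters, 5.70. Rpl3l was at 0.89 as given above, and the other 4 ran from -0.30 (Rps3a2) to 0.12 (Rps23rg1).

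Over all 45 members, 36 (80%) lay below 0 under prednisolone, where 52.7% of all tested clusters did. The median was -0.17, against -0.01 over all tested clusters and -0.01 over the 3159 clusters at least as bright as the median member. Among the 33 mature ribosome genes 30 lay below 0, with a median of -0.19. At an unadjusted p under 0.05 there were 2 members higher and 11 lower (all clusters 10.9% and 10.8%). Of the 3159 clusters at least as bright as the median member, 720 were higher and 582 lower at that p. Groups did not overlap for 3 members higher and 8 lower (all clusters 13.4% and 13.3%). Among the same 3159 bright clusters, groups did not overlap for 760 higher and 674 lower. The member counts describe genes that share arrays and vary together on them, so they are not 45 independent observations.

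The array values show how much of this rests on single mice. The median member deviated from its own mean over the 12 arrays by 0.07, 0.19 and 0.04 in the untreated arrays, by -0.03, -0.04 and 0.05 under spironolactone plus lisinopril, by 0.02, -0.15 and 0.03 under eplerenone plus lisinopril, and by -0.16, -0.13 and 0.09 under prednisolone. Untreated and prednisolone overlapped, because prednisolone array 3 was above 2 of the 3 untreated arrays. The member median of prednisolone minus untreated was -0.27 without prednisolone array 3, -0.10 without prednisolone array 1 and -0.11 without untreated array 2, and below 0 in all 19 alternatives run. That includes quantile normalization and equal array medians. It also includes leaving out an array of a group not compared, which cannot change this median. The pooled SD of these array medians within groups was 0.10.

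**Figure D3:**
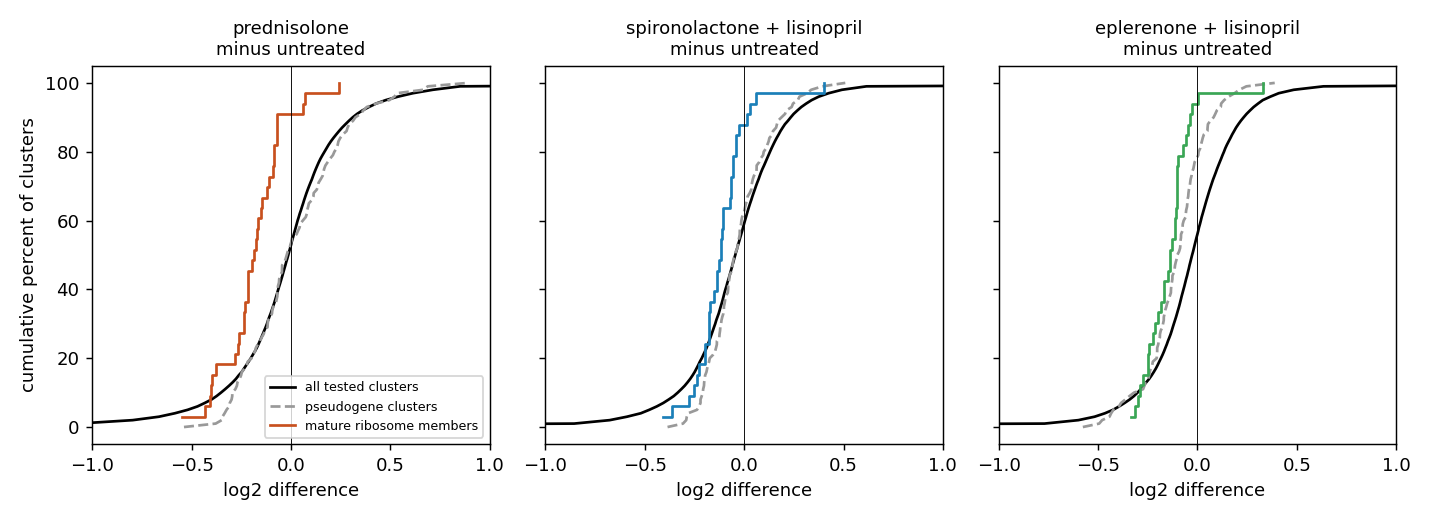
Cumulative percent of clusters against log2 difference from untreated for the 33 mature ribosome members (coloured steps), 201 ribosomal protein pseudogene clusters (dashed) and all 30412 tested clusters (black); the horizontal axis stops at -1 and 1. The member curve crosses 0 at 90.9% under prednisolone, 87.9% under spironolactone plus lisinopril and 93.9% under eplerenone plus lisinopril.

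The mineralocorticoid receptor antagonist combinations were compared with no treatment in the same way, and they use the same 3 untreated arrays, so the 3 comparisons are not independent. Neither combination had a member past the threshold. The limma counts were 0 of 45 for spironolactone plus lisinopril (0.0822% of all clusters called) and 0 of 45 for eplerenone plus lisinopril (0.0296%). At an unadjusted p under 0.05 the first had 1 member higher and 2 lower (all clusters 6.37% and 9.84%), and the second had 2 higher and 5 lower (all clusters 6.11% and 7.33%).

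Under spironolactone plus lisinopril 34 of the 45 members lay below 0, where 59.2% of all clusters did, and the median was -0.11 against -0.04. Of the 3159 clusters at least as bright as the median member, 42.4% lay below 0, with a median of 0.04. Groups did not overlap for 3 members higher and 8 lower (all clusters 7.35% and 13.1%). Rps14, the small-subunit gene lost in the 5q- syndrome, read 7.33, 7.27 and 7.15 untreated and 6.67, 6.79 and 7.07 under the combination. All treated arrays were below all untreated arrays, and the difference of -0.41 ± 0.13 did not pass (adjusted p = 0.20). Rpl31 read 8.38, 9.02 and 8.39 under the combination against 8.17 to 8.23 untreated, a difference of 0.40 ± 0.15 (adjusted p = 0.24) in which array 2 stood well above the others. Rpl41 (-0.36 ± 0.17), Rpl39 (-0.28 ± 0.14), Rpl3l (0.25 ± 0.19) and Rpl6l (0.22 ± 0.11) did not pass either. The member median was -0.03 without untreated array 2 and -0.07 without spironolactone array 2.

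Under eplerenone plus lisinopril 38 of the 45 members lay below 0 (all clusters 56%), and the median was -0.14 against -0.03. Of the 3159 clusters at least as bright as the median member, 50.1% lay below 0, with a median of -0.00094. Groups did not overlap for 2 members higher and 9 lower (all clusters 7.7% and 9.23%). Rpl3l read 11.24, 11.45 and 11.09 against 11.06, 10.32 and 10.72 untreated, so the groups did not overlap by a narrow margin. Its difference was 0.56 ± 0.19, which did not pass (limma adjusted p = 0.27). The dim Rpl39l read 5.23, 5.64 and 5.24 against 6.11, 5.67 and 5.77 untreated, a difference of -0.48 ± 0.15 (adjusted p = 0.26) in which array 2 nearly met the lowest untreated array. Rps28 (-0.33 ± 0.11), Rps7 (-0.31 ± 0.12), Rpl31 (0.33 ± 0.15) and Rps23rg1 (0.16 ± 0.08), a retrogene of Rps23, did not pass. The median was -0.08 without eplerenone array 2 and -0.08 without untreated array 2.

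**Figure D4:**
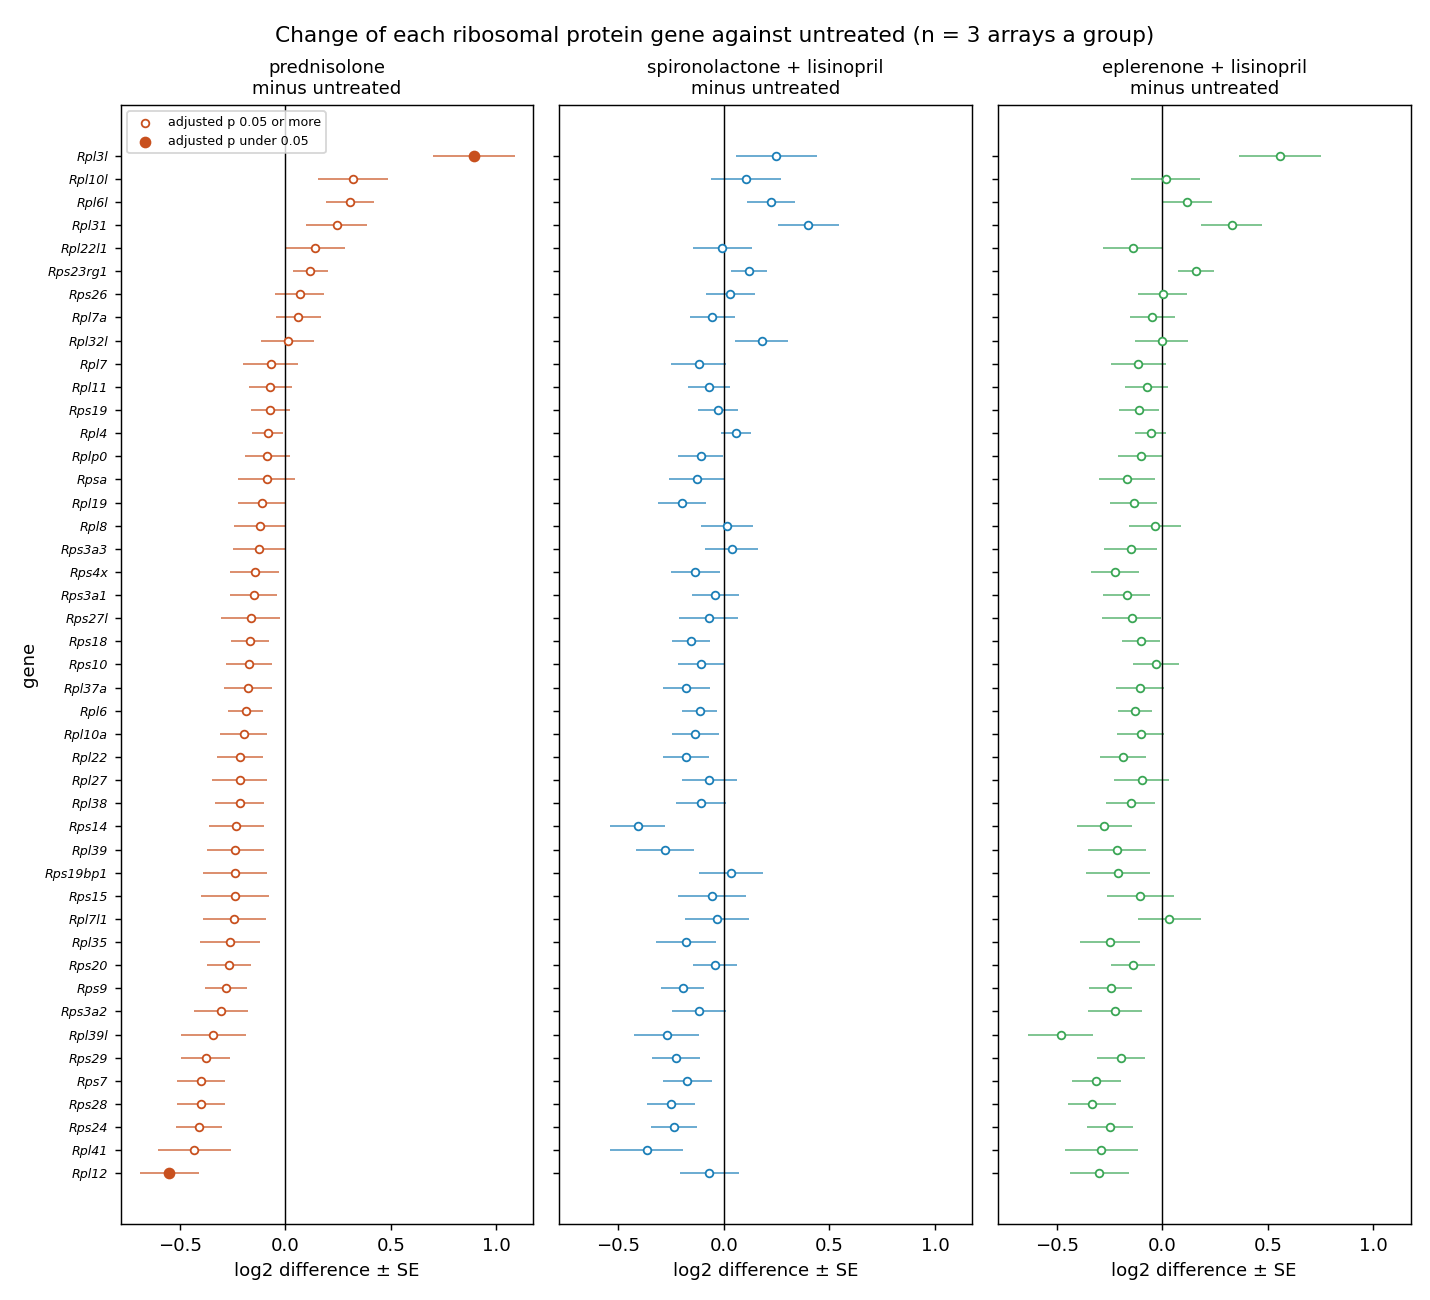
Log2 difference ± SE from untreated (n = 3 arrays per group) for each of the 45 members in the same row order; filled points have a limma adjusted p under 0.05. The 2 filled points are Rpl3l (0.89) and Rpl12 (-0.55) under prednisolone, and 36, 34 and 38 members lie left of 0 from the left panel to the right.

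The combinations were also compared with prednisolone. For spironolactone plus lisinopril minus prednisolone no member passed (0 of 45, all clusters 0.822%) and 2 had an unadjusted p under 0.05 (all clusters 16.3%): Rpl12 at 0.48 ± 0.14 (limma adjusted p = 0.13) and Rpl3l at -0.65 ± 0.19 (0.14). Rpl3l read 10.66, 11.24 and 10.95 with spironolactone, all below the prednisolone arrays. Rpl12 read 17.42, 17.20 and 17.32, all above them. The other named differences of this comparison were Rps19bp1 (0.27), Rps20 (0.23), Rps14 (-0.18) and Rpl10l (-0.22).

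For eplerenone plus lisinopril minus prednisolone no member passed (0 of 45, all clusters 0.608%), and none had an unadjusted p under 0.05 (all clusters 12.5%). Rpl3l was at -0.34 (95% interval -0.76 to 0.09), Rpl10l at -0.30, Rpl22l1 at -0.28, Rpl7l1 at 0.27, Rpl12 at 0.25 and Rps29 at 0.18. The member medians of these 2 comparisons were 0.07 and 0.03. Over all tested clusters the medians were -0.04 and -0.01.

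The antagonists, both steroids with a spirolactone ring and differing among other changes in eplerenone's epoxide, were given at unequal doses, so their direct comparison mixes compound and dose. No member passed for spironolactone minus eplerenone, each with lisinopril (0 of 45, 0% of all clusters), and none had an unadjusted p under 0.05, where 1365 clusters (4.49%) did. The 3 most negative members were Rpl3l at -0.31 (95% interval -0.73 to 0.12), Rps14 at -0.13 (-0.42 to 0.15) and Rps10 at -0.08 (-0.32 to 0.16). The 3 most positive were Rps19bp1 at 0.24 (-0.09 to 0.58), Rpl12 at 0.23 (-0.08 to 0.54) and Rpl39l at 0.21 (-0.13 to 0.55). These intervals leave room for differences of moderate size in either direction. The limma F-test over the 4 groups called no member (1.93% of all clusters), and 1 when untreated array 1 was left out.

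Some symbols were measured by more than 1 cluster, which checks a value against another probe set. For Rpl41, the cluster on the gene's own chromosome 10 was at -0.57 ± 0.15 under prednisolone (limma adjusted p = 0.052), beside -0.43 for the brighter cluster on chromosome 14. For Rpl35 the own-chromosome cluster was at -0.32 and the brighter one at -0.26, and for Rpl27 they were at -0.24 and -0.22. Rpl7a differed in sign, at -0.06 on its own chromosome and 0.06 elsewhere, both within their SE of 0. Rps26 was at 0.07 on its own chromosome and at -0.10 and 0.05 in the others. The brightest cluster lay on another chromosome than the gene for 6 members (Rpl7a, Rpl12, Rpl27, Rpl31, Rpl35, Rpl41), where a processed copy could share its sequence. With own-chromosome clusters in their place, and Rpl12 and Rpl31 left out, 1 member passed under prednisolone, Rpl3l.

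Genes that control or build ribosomes were followed in the same fit. Of 28 measured mTORC1 and growth-signal genes, 2 rose and 3 fell under prednisolone (all tested clusters 3.22% and 3.17%). Ddit4, an inhibitor of mTORC1, fell by 2.99 ± 0.68 (limma adjusted p = 0.027), and Myc, a transcription factor that drives ribosome production, fell by 1.79 ± 0.31 (0.0094). Max, the partner of Myc, fell by 0.46 ± 0.09 (0.016). Rps6kb2, a kinase of the ribosomal protein S6, rose by 0.55 ± 0.09 (0.0089), and Tsc2, which restrains mTORC1, rose by 0.40 ± 0.09 (0.029). The members do not all act in 1 direction on the pathway, and the list median was -0.04. The Ddit4 call was lost without untreated array 3 (adjusted p = 0.056) or prednisolone array 1 (0.091), 2 (0.089) or 3 (0.059), the Max call without untreated array 2 (0.058) or prednisolone array 2 (0.075), and the Tsc2 call without untreated array 1 (0.051), 2 (0.097) or 3 (0.059) or prednisolone array 1 (0.11) or 2 (0.10). Neither combination changed a gene of this list past the threshold (all tested clusters 0.0822% with spironolactone and 0.0296% with eplerenone).

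None of 58 ribosome assembly factors passed under prednisolone, where 6.39% of all tested clusters did. Of the 58, 43 (74.1%) lay below 0, with a median of -0.13 (all tested clusters 52.7% and -0.01). Nmd3, the export adaptor of the large subunit, was at -0.28 ± 0.08 (limma adjusted p = 0.074), and Wdr75, a factor of early small-subunit processing, at -0.38 ± 0.12 (0.086). None of 15 polymerase I and ribosomal RNA transcription genes passed (median 0.02), with Taf1b at 0.28 ± 0.11 (0.15) and Polr2f at 0.33 ± 0.14 (0.19). None of 29 translation factors and other TOP-type messengers passed (median -0.0048), with Eif4b at 0.28 ± 0.08 (0.065) and Eef1a2, the muscle form of elongation factor 1A, at 0.50 ± 0.16 (0.098). Of 12 p53 response genes 2 rose (all tested clusters 3.22%), namely Phlda3 (0.45 ± 0.12, adjusted p = 0.047) and Tigar, listed as 9630033F20Rik (0.60 ± 0.13, 0.023). The Phlda3 call was lost with any 1 array left out except eplerenone array 3 (adjusted p 0.052 to 0.13). The Tigar call was lost without untreated array 2 (0.059) or 3 (0.059) or prednisolone array 2 (0.097) or 3 (0.063). In the combinations no gene of these 4 lists passed (all tested clusters 0.0822% with spironolactone and 0.0296% with eplerenone).

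Markers of the tissue and of other cells moved in the same comparison, and their part in the ribosomal protein values was not tested. Counts called in each list are to be read against 3.22% of all tested clusters higher and 3.17% lower. A single call in so short a list is not read as a result about its cell type. All 12 skeletal muscle markers were present, with list means per array (mean log2 signal) of 17.90 to 17.98 untreated and 18.10 to 18.24 under prednisolone. Of these 1 rose, Des, which encodes the muscle filament desmin (0.52 ± 0.08, limma adjusted p = 0.0076), and 11 did not pass. Of 9 fibroblast and matrix markers 6 fell (Col1a1, Col3a1, Col1a2, Fn1, Postn and Thy1) and 1 rose (Fbln1). Their list mean was 14.52 to 14.78 untreated and 14.16 to 14.29 under prednisolone, with Col1a1 and Col3a1, the main fibrillar collagens, at -0.66 ± 0.07 (0.0021) and -0.66 ± 0.10 (0.0061). Of 12 macrophage and monocyte markers 5 fell (Fcgr1, Cd14, Tyrobp, Mrc1 and Ly6c2). Their list mean was 12.36 to 13.16 untreated and 11.67 to 12.14 under prednisolone, with Fcgr1, an IgG receptor, at -2.23 ± 0.35 (0.0070) and Cd14, a lipopolysaccharide co-receptor, at -1.55 ± 0.21 (0.0037). The Col1a1, Col3a1, Fcgr1, Cd14 and Ly6c2 calls passed in all 20 alternatives. Those of Fbln1, Col1a2, Postn, Thy1, Mrc1 and Tyrobp each failed with at least prednisolone array 1 or 2 left out (highest adjusted p over the alternatives 0.15, 0.085, 0.097, 0.059, 0.082 and 0.072).

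The same shares of all tested clusters, 3.22% higher and 3.17% lower, apply to the next lists. Of 9 neutrophil markers 1 fell, Retnlg (-2.54 ± 0.66, limma adjusted p = 0.046), with list means of 6.42 to 8.43 untreated and 6.11 to 6.48 under prednisolone. Of 9 lymphocyte markers 1 fell, Cd3e, part of the T cell receptor complex (-0.40 ± 0.09, adjusted p = 0.029; 5.50 to 5.58 against 5.22 to 5.28), and of 7 endothelial markers 1 fell, Cdh5, the endothelial cadherin (-1.48 ± 0.26, limma adjusted p = 0.011; list means 9.69 to 10.61 against 9.64 to 9.80). Of 8 satellite cell and regeneration markers 1 rose, Myh8, the perinatal myosin (0.93 ± 0.21, adjusted p = 0.026; 9.11 to 10.04 against 9.73 to 10.33). The Retnlg, Cd3e and Myh8 calls passed in 9 of 20, 11 of 19 and 16 of 20 alternatives, and each was lost without prednisolone array 2 (0.13, 0.12 and 0.11) among others. None of 7 adipocyte (9.99 to 10.68 against 10.59 to 12.52) or 7 proliferation markers (7.58 to 8.29 against 7.45 to 8.24) passed. Log2 signals have no true 0, so no defining marker could be called absent. Cd14 was also lower with spironolactone plus lisinopril (-1.76 ± 0.21, adjusted p = 0.028) and with eplerenone plus lisinopril (-1.79 ± 0.21, 0.023), and no other marker of these lists passed there (all tested clusters 0.0822% and 0.0296%). The first call was lost without untreated array 3 (0.085), spironolactone array 1 (0.11) or 2 (0.13), or any prednisolone array (0.056 to 0.063). The second was lost without untreated array 3 (0.072), spironolactone array 1 (0.057) or 2 (0.061), any eplerenone array (0.067 to 0.14) or any prednisolone array (0.055 to 0.061). Prednisolone array 3, the array with the high ribosomal protein signals, deviated from the 12-array mean of the muscle markers by 0.04, with 0.04 and 0.08 in the other 2 prednisolone arrays.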

How the data were processed

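Total RNA of 12 quadriceps muscles was labelled and hybridised to single-channel Affymetrix arrays, 1 per mouse. The authors deposited log2 signals per transcript cluster, for which the submitters' processing notes name RMA, Affymetrix Expression Console and Transcriptome Analysis Console. No version, annotation release or build is stated: not given in the sources used here. RMA draws the arrays to 1 distribution, which would hide a change shared by most genes. Of 65587 clusters, 30412 had exactly 1 symbol in the platform annotation and were tested (2118 had several and 33057 none); 827 symbols were updated through the gene ID. No dim cluster was removed.

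The 4 group means were fitted with limma 3.58.1 in R 4.3.3 (eBayes, two-sided, 8 residual and 2.94 prior degrees of freedom, median SE 0.129) and adjusted by Benjamini-Hochberg at 0.05. An exact permutation of 3 against 3 arrays cannot go below 0.1. The number of arrays limits the precision. The fitting step was tested on simulated data with known changes. The labels call the samples biological replicates. The same numbers across groups did not pair arrays: same-number deviations correlated at -0.237 to 0.157 (18 pairs). Chromosomes of clusters were read from their IDs, which matched RefSeq (GRCm38.p6) for 99.63% of 29292 clusters. The named genes were members past the threshold, the 3 most positive and 3 most negative of each comparison, a fixed set of members, and the members of each other list that passed or had the smallest p; the text names a part of these. Members and lists were chosen with earlier results of these data known. Alternatives covered normalization, filters, the cluster for a gene, the samples fitted, a replicate block and each array left out.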

Additional observations from a re-analysis of the deposited data

How the results depend on the processing

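The count of 2 members called under prednisolone was 1 with quantile normalization and with all clusters tested. It was also 1 with mature ribosome members only, with members at or under 16 only, and with own-chromosome clusters (chosen after seeing the data). The first of these settings leaves out Rpl3l and the others leave out Rpl12, so these drops reflect which members were counted. The count was 4 with equal array medians, 6 with bright clusters only, and 0 with only the 2 groups fitted or by a fold of 2. Leaving out each array gave 0 to 5, and the F-test 0 to 1. Shares of all clusters called in these alternatives are not given here. With the replicate block, 1 member passed (Rpl3l, limma adjusted p = 0.0445), although 3 of 12 arrays correlated best with one of their own number and numbers do not pair the mice. The member median was -0.27 to -0.10 for prednisolone minus untreated with arrays left out. The 2 combinations had 0 members called in all alternatives, with medians below 0. Leaving out an array of a group not compared cannot change a median. The medians of eplerenone minus prednisolone (-0.01 to 0.10) and spironolactone minus eplerenone (-0.02 to 0.07), each with lisinopril, changed sign in 2 alternatives each. Among the single genes named or called, 207 alternative values kept their sign and lost the call. Where an alternative left the values of the 2 groups compared unchanged, the sign could not change. Detection calls were not used here, and signals above 16 or in clusters off the gene's locus limit Rpl12 and Rpl41 most.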

Other observations

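Several neighbouring groups of clusters belong to none of the comparisons above. A set of 53 clusters carries several symbols, at least 1 of them of a cytosolic ribosomal protein, so no gene is named from them. They are outside the clusters tested above, and their values come from a limma fit of all 65587 clusters, with adjustment over all of these. Under prednisolone 48 of the 53 lay below 0, with a median of -0.19 and none called, and 15 had an unadjusted p under 0.05. Shares over all clusters of that fit are not given here. Among the 30412 clusters tested above, 52.7% lay below 0 under prednisolone. At an unadjusted p under 0.05, 10.9% of those were higher and 10.8% lower. Under spironolactone plus lisinopril 49 lay below 0 (median -0.12), where 59.2% of the clusters tested above did. Under eplerenone plus lisinopril 50 did (median -0.16), where 56% of the clusters tested above did.

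Of 201 clusters that each carry the symbol of 1 ribosomal protein pseudogene, 7 rose under prednisolone and none fell by the limma test, where 3.22% and 3.17% of all tested clusters did, so the share that rose is near that of all clusters. At an unadjusted p under 0.05 there were 25 higher and 11 lower (all clusters 10.9% and 10.8%). Their median was -0.02, with 107 (53.2%) below 0. Under spironolactone plus lisinopril 126 (62.7%) lay below 0 (all clusters 59.2%), with a median of -0.05, and under eplerenone plus lisinopril 157 (78.1%) did (all clusters 56%), with a median of -0.10. None passed in either combination by the limma test (all clusters 0.0822% and 0.0296%). At an unadjusted p under 0.05 there were 10 higher and 1 lower in the first (all clusters 6.37% and 9.84%). In the second there were 1 higher and 19 lower (all clusters 6.11% and 7.33%). The mature ribosome members had 87.9% and 93.9% below 0 in these comparisons. Under prednisolone the highest was Rps2-ps9 at 0.89 ± 0.15 (limma adjusted p = 0.0089), and 3 of the 7 were copies of Rpl31: Rpl31-ps21 (0.69, 0.040), Rpl31-ps24 (0.69, 0.027) and Rpl31-ps22 (0.50, 0.023). Probes of such copies can share sequence with the parent gene and with each other. The 7 calls were not rerun under the alternatives of normalization, filters and arrays left out.

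The proteins of the mitochondrial ribosome, which makes subunits of the respiratory chain, were listed after the data were seen. Of 74 measured genes 4 rose under prednisolone and none fell by the limma test (all tested clusters 3.22% and 3.17%), and at an unadjusted p under 0.05 there were 19 higher and 1 lower (all clusters 10.9% and 10.8%). The 4 were Mrpl37 (0.66 ± 0.17, limma adjusted p = 0.048), Mrpl2 (0.52 ± 0.09, 0.0083), Mrpl42 (0.34 ± 0.09, 0.042) and Mrpl12 (0.32 ± 0.08, 0.048). These 4 calls were not rerun under the alternatives of normalization, filters and arrays left out. The median of the 74 genes was 0.14, with 15 below 0, where the mature cytosolic members had a median of -0.19. In the combinations the mitochondrial medians were 0.10 for spironolactone plus lisinopril and 0.12 for eplerenone plus lisinopril (all tested clusters -0.04 and -0.03). None was called, where 0.0822% and 0.0296% of all tested clusters were.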
